A study of Mus musculus with 6 samples.

Results

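The 10 genes examined here belong to the bone morphogenetic protein (BMP) system and were measured in sorted bone marrow stromal cells. They are the ligand genes Bmp2, Bmp4, Bmp5 and Bmp6, and Bmper, Chrdl1, Grem1, Nog, Fst and Fstl1, which encode secreted proteins that bind BMPs or related ligands. They were taken by gene symbol from a count table of 17131 entries for 17128 genes, and all 10 were found and passed the filter on low counts, among 13926 genes tested. Bmper was the only one of the 10 that edgeR called (adjusted p below 0.05). It was 2.13-fold higher in the CXCL12-deficient libraries (adjusted p = 0.014, edgeR). A missing call does not show that a gene was unchanged. At an unadjusted edgeR p below 0.05 stood 6 of the 10, against 18.9% of all tested genes. DESeq2 called 4 of the 10, where it called 8.59% of its tested genes. Measured against markers of the stromal cells themselves in place of all genes, Bmper was no longer called and Bmp2 was called lower, on a scale where 20.1% of all tested genes were called lower.

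BMPs are secreted dimers that signal through paired type I and type II serine/threonine kinase receptors and SMAD1, SMAD5 and SMAD9, which switch on genes such as the Id family. Secreted binding proteins hold BMPs outside the cell, keep them from their receptors or, for some, carry them to where they act. In bone and marrow BMPs are known for driving bone formation from skeletal stem and progenitor cells, and BMP6 made in the liver also sets iron uptake through hepcidin.

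All libraries came from femurs of mice at postnatal day 21, with about 20000 collagenase-released cells each. Control libraries (n = 3) held GFP+ cells of Cxcl12(GFP/fl); R26R(tdTomato/+) mice, whose cells carry GFP in place of one Cxcl12 allele and an intact floxed allele. The CXCL12-deficient group (n = 3) consisted of double-positive GFP+tdTomato+ cells from Cxcl12(GFP/fl); Col2a1-cre; R26R(tdTomato/+) mice. The Cre is driven by the promoter of a cartilage collagen gene, so only cells that arose from Col2a1-expressing precursors lose the floxed allele and become tdTomato+. Both groups therefore carry the GFP allele, the floxed allele and the reporter, and the Cre transgene, the deletion and the sort gate changed together and cannot be told apart. Nothing in the labels says whether the libraries of a group came from separate animals, so the p-values reflect only how far these libraries vary, which may be technical.

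Total counts ran from 20133299 to 28009257 per library, and the 10 genes together took 74362 to 129724 reads. Cxcl12, the targeted gene, had 3876, 3673 and 3694 CPM (counts scaled to the size of each library) in the controls. In the CXCL12-deficient libraries it had 1423, 1280 and 1163 CPM (log2 fold change -1.54 ± 0.17 SE, adjusted p = 0.0053, edgeR). These values sum 4 exon entries, which did not fall alike. Exon 2 had 366 to 413 CPM in controls against 21.8 to 34.6 CPM in CXCL12-deficient libraries, and exon 3 had 201 to 229 against 32.5 to 39.6 CPM. Exon 1 had 151 to 187 against 91.7 to 104 CPM. Exon 4, most of the sum, had 2845 to 3127 against 998 to 1261 CPM. The summed level of 12 markers of CXCL12-abundant reticular (CAR) cells, the stromal cells that make most CXCL12, was 9008 to 11478 CPM in controls against 13365 to 21110 CPM in CXCL12-deficient libraries, and all 12 had a positive log2 fold change (median 0.70, 3 called). Markers of several other cell types were lower. Neutrophil markers summed to 15965 to 21850 CPM in controls against 3004 to 7512 CPM in CXCL12-deficient libraries (13 of 15 lower), monocyte and macrophage markers to 2274 to 3502 and 532 to 958 CPM (7 of 14 tested lower), and endothelial markers to 308 to 397 and 168 to 191 CPM (9 of 18 lower). Lower calls were also made for 6 of 8 megakaryocyte, 3 of 8 B lineage and 4 of 7 tested fibroblast and tendon markers. The monocyte and macrophage sum came mostly from Lyz2, with group means of 2327 (Control) and 432 CPM (CXCL12-deficient). This list did not shift as a whole: 10 of its tested genes had a negative log2 fold change and 4 a positive one. The 4 were C1qa (0.46), C1qb (0.78), C1qc (0.78) and Mrc1 (0.29), none of them called. Of the erythroid, chondrocyte and osteoblast markers tested, 0 of 9, 0 of 10 and 0 of 9 were called. Within controls chondrocyte markers summed to 181 to 1501 CPM and osteoblast markers to 8181 to 28657 CPM. With such a spread, missing calls in these lists do not show equal levels. Clec3b, of the fibroblast and tendon list, was at 0 in all controls, and no CAR cell, neutrophil, monocyte and macrophage or endothelial marker was at 0 throughout a group. In sorted bulk samples, fewer cells of a type and less RNA per cell cannot be told apart, and the part of these shifts in the BMP results was not tested beyond the marker-relative values given at the end.

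The upstream sequence of 4 of the genes is shown because their RefSeq start lies within 2 bases of the GENCODE start, so the window holds no annotated 5' UTR beyond 1 base. They are Bmper, the gene that was called, Grem1, and the ligand genes Bmp4 and Bmp5. Each run is the 250 bases before the gene start, 5' to 3' on the gene's strand, from RefSeq on GRCm38.p6. Capitals mark matches on either strand to GGCGCC (a GC-rich element known from BMP SMAD binding), CAGAC (a SMAD-binding element) or CCCNNGGG (the palindromic core known from early B cell factors such as Ebf3).
Bmper, chr9:23222826-23223075, plus strand: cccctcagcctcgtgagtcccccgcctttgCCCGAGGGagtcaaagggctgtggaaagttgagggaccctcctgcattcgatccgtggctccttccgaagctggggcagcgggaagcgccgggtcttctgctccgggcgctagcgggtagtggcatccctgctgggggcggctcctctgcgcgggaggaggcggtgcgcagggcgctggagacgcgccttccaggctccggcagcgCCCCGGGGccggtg
Grem1, chr2:113758649-113758898, minus strand: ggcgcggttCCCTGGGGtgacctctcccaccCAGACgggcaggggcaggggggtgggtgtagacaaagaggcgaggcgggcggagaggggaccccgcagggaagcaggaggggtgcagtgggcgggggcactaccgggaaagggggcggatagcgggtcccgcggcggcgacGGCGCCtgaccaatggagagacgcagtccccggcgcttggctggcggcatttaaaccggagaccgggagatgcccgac
Bmp4, chr14:46390670-46390919, minus strand: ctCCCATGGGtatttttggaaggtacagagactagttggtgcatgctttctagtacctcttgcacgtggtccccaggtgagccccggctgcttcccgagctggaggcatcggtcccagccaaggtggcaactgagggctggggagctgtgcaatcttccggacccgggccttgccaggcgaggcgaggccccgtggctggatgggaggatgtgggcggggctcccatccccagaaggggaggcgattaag
Bmp5, chr9:75775115-75775364, plus strand: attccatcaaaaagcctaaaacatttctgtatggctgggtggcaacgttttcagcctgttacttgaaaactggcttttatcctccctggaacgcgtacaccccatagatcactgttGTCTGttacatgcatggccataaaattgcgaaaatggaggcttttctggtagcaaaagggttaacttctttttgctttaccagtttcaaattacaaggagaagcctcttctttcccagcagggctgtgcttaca

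The 4 windows differ most in base composition. Bmper and Grem1 have 71.6% and 72% G or C with 24 CpG each, Bmp4 63.2% with 11 CpG, and Bmp5 42.8% with 4 CpG, against medians of 52.4% and 6 CpG over 32851 windows of the same length. CCCNNGGG occurs 2 times upstream of Bmper, at positions -220 to -213 and -14 to -7 from the gene start, and 1 time each upstream of Grem1 and Bmp4. It is in 11.8% of all windows. GGCGCC occurs only in the Grem1 window of these 4 and in 9.59% of all windows, and CAGAC in those of Grem1 and Bmp5 and in 42.2% of all. These are matches of letters, and whether any factor binds there was not measured.

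All 10 are protein-coding genes, and GENCODE M21 places them on GRCm38 as follows. Of the binding protein genes, Chrdl1 lies on the minus strand at chrX:143285674-143394262, Grem1 at chr2:113746164-113758646 (minus), Nog at chr11:89300638-89302332 (minus), Fst at chr13:114452290-114458951 (minus) and Fstl1 at chr16:37776873-37836514 (plus). Of the ligand genes, Bmp2 lies at chr2:133552159-133562885 (plus), Bmp4 at chr14:46383520-46390669 (minus), Bmp5 at chr9:75775364-75900310 (plus) and Bmp6 at chr13:38345107-38500302 (plus). Counts cover whole genes, so isoforms cannot be told apart.

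Levels of different genes can be compared only per transcript length, so CPM was divided by the length of each gene's exons in GENCODE M21. In controls Fstl1, which encodes a secreted follistatin-like glycoprotein, stood highest by this measure, at 453 ± 44.4 CPM per kilobase (SD, n = 3). Bmp4 followed at 100.2 ± 4.94 CPM per kilobase, and Fst, Bmp6 and Chrdl1 lay together at 71.5 ± 14.7, 71.1 ± 6.05 and 70.4 ± 9.76 CPM per kilobase, with library values that overlapped. Bmp5 had 20.4 ± 4.29 CPM per kilobase. Grem1 (12.01 ± 3.53), Bmp2 (11.8 ± 1.38), Nog (8.01 ± 1.76) and Bmper (6.60 ± 0.76) were lowest in CPM per kilobase, and of these neighbours only Bmp2 and Nog had separate library values.

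Fstl1 was also first in the CXCL12-deficient libraries, and several other places differed. Bmper moved from place 10 to place 8 with 14.1 ± 2.18 CPM per kilobase, and Bmp2 from place 8 to place 10 with 8.0 ± 1.91 CPM per kilobase, but the library values of the neighbours Grem1, Bmper, Nog and Bmp2 overlapped each in turn, so these last places are not separated. Chrdl1 moved from place 5 to place 2 with 119.6 ± 38.7 CPM per kilobase, though its libraries overlapped those of Bmp4, the next in order. Among all tested genes with a length (90.2% of them), Fstl1 stood at percentile 99.4 in controls, Bmp4 at 96.4, and Bmper at 54.7, against 71.8 for Bmper in CXCL12-deficient libraries.

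**Figure D1:**
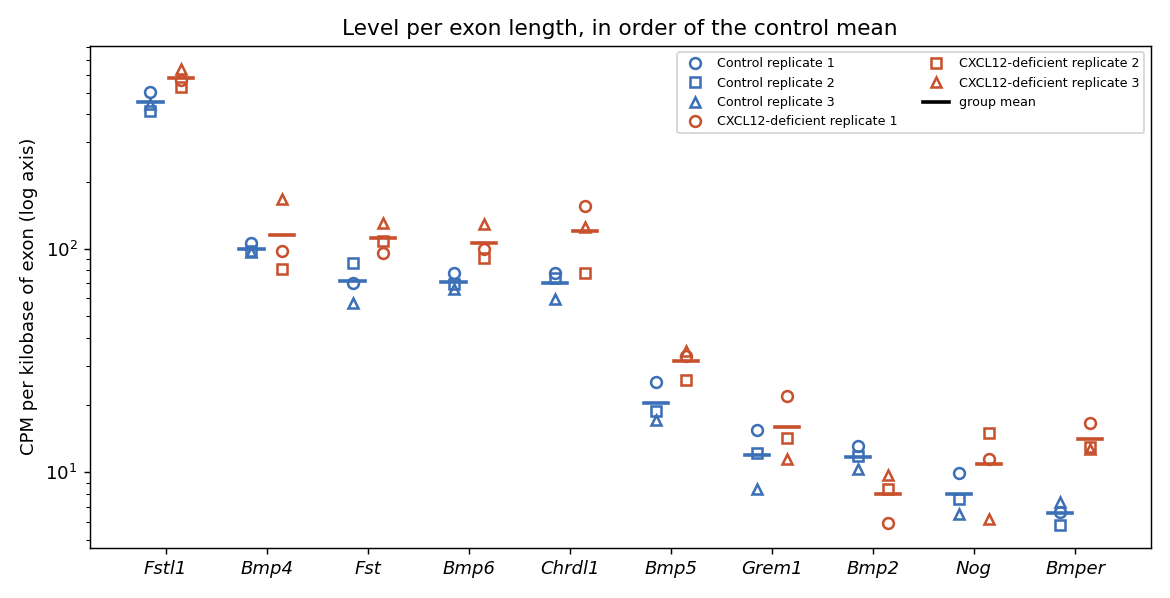
Level of each gene per exon length in each library (CPM per kilobase of exon, log axis), with bars for group means and genes in order of the control mean. Fstl1 stands above the other 9 genes in every library, and the order of the group means of Bmper and Bmp2 differs between the groups, with library values that overlap their neighbours' in the CXCL12-deficient group.

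Among the binding proteins, Bmper rose. It encodes BMP-binding endothelial regulator, a secreted protein with von Willebrand factor C repeats like those of chordin, known to dampen or to promote BMP signalling depending on context. The gene (ENSMUSG00000031963.8) lies on the plus strand of chromosome 9 at 23223076 to 23485200 of GRCm38. It had 32.1, 28.1 and 35.5 CPM in Control replicates 1, 2 and 3 and 80.1, 62.7 and 61.3 CPM in CXCL12-deficient replicates 1, 2 and 3. The lowest CXCL12-deficient library thus lay well above the highest control. The means were 31.9 ± 3.68 and 68.0 ± 10.5 CPM (SD, n = 3 each). The log2 fold change was 1.09 with a 95% interval from 0.69 to 1.497 (adjusted p = 0.014, edgeR). Over all tested genes 4.57% were called, with 0.639% higher and 3.94% lower. The call was lost without Control replicate 2 (adjusted p = 0.070) and without Control replicate 3 (adjusted p = 0.055), where the log2 fold change was 1.01 and 1.16.

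By the rule fixed for likeness, the 3 genes whose centred log2 CPM profile over the 6 libraries lay nearest to that of Bmper, among 10841 genes of at least 5 CPM, were Aqp7, Wdr60 and Il20ra. Their root mean square differences from Bmper were 0.139, 0.163 and 0.166 on the log2 scale. Aqp7, which encodes a water and glycerol channel known from fat cells, had 50.9, 43.4 and 52.8 CPM in controls against 100.7, 76.8 and 85.6 CPM in CXCL12-deficient libraries. These 3 genes were picked for the likeness, and their own difference between the groups is no further evidence about Bmper.

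Chrdl1 was not called, and the size of its difference depended on which library was left out. It encodes chordin-like 1, a BMP4 antagonist with the same kind of repeat as BMPER. It had 526, 500 and 401 CPM in controls against 1049, 529 and 847 CPM in CXCL12-deficient libraries. The groups did not overlap, but CXCL12-deficient replicate 2 exceeded the highest control only slightly. The fold change was 1.70, with a 95% interval from 1.15 to 2.51 (adjusted p = 0.13, edgeR). Without CXCL12-deficient replicate 2 the log2 fold change was 0.996 and the gene was called (adjusted p = 0.038), while it was 0.53 without CXCL12-deficient replicate 1 (adjusted p = 0.27) and 0.64 without Control replicate 3 (adjusted p = 0.43).

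Fst and Fstl1 had higher group means in the CXCL12-deficient libraries and were not called. Fst encodes follistatin, which neutralises activins and binds some BMPs. It had 323, 398 and 263 CPM in controls against 440, 500 and 599 CPM in CXCL12-deficient libraries, without overlap (1.56-fold, 95% interval 1.15 to 2.12, adjusted p = 0.11, edgeR). Fstl1 had 2463, 2032 and 2186 CPM in controls against 2789, 2610 and 3142 CPM in CXCL12-deficient libraries. It also did not overlap, by a narrower margin, and its interval of 0.973 to 1.68-fold included no difference (adjusted p = 0.31, edgeR). In GENCODE M21 an antisense gene shares 115 exon bases with Fst, 2.51% of its exon length, and no gene shares exons with Bmper, Chrdl1, Grem1, Nog, Fstl1 or Bmp2.

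The classical antagonist genes Grem1 and Nog overlapped between the groups. Grem1 encodes gremlin 1, an antagonist of BMP2 and BMP4 whose gene also marks skeletal stem cells near the growth plate. It had 64.1, 50.5 and 34.9 CPM in controls against 91.3, 59.0 and 47.6 CPM in CXCL12-deficient libraries, so the ranges ran into each other (1.32-fold, 95% interval 0.846 to 2.07, adjusted p = 0.51, edgeR). Nog encodes noggin, which covers the receptor-binding faces of BMPs. It had 16.9, 12.9 and 11.0 CPM in controls against 19.5, 25.3 and 10.4 CPM in CXCL12-deficient libraries. CXCL12-deficient replicate 3 was the lowest of all 6 libraries for Nog, and the interval of 0.801 to 2.30-fold includes no difference as well as a change larger than that of Bmper (adjusted p = 0.54, edgeR). Nog also had the fewest reads of the 10 genes, 233 to 581 per library, where counting alone gives a coefficient of variation of 6.55% at the lowest library.

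**Figure D2:**
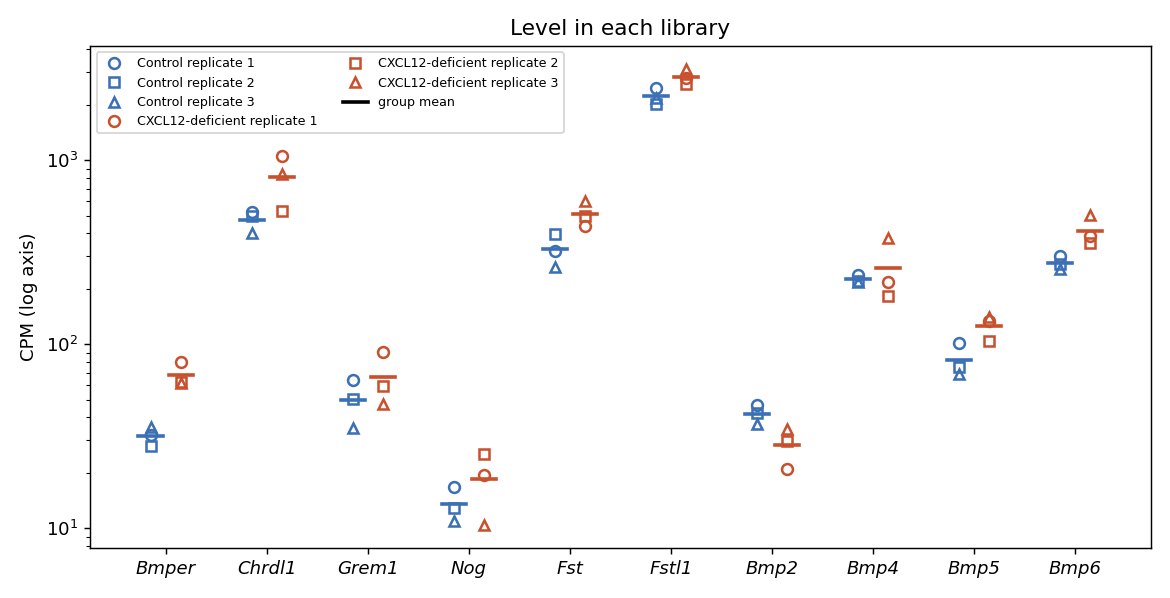
CPM of each of the 10 genes in each library (log axis), with circles, squares and triangles for replicates 1, 2 and 3 and bars for group means. The groups are separate for Bmper, Chrdl1, Fst, Fstl1, Bmp2, Bmp5 and Bmp6 and overlap for Grem1, Nog and Bmp4.

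None of the 4 ligand genes was called by edgeR, and their group differences did not share a sign. Bmp5 and Bmp6 encode closely related ligands of the same BMP subgroup. Bmp6 had 303, 272 and 257 CPM in controls against 389, 355 and 501 CPM in CXCL12-deficient libraries. Every CXCL12-deficient library lay above every control (1.497-fold, 95% interval 1.14 to 1.96, adjusted p = 0.10, edgeR). Bmp5 had 102, 75.4 and 69.3 CPM in controls against 134, 105 and 141 CPM in CXCL12-deficient libraries, where CXCL12-deficient replicate 2 was close to Control replicate 1 (1.54-fold, 95% interval 1.14 to 2.08, adjusted p = 0.12, edgeR). Reads of an antisense gene over 46.7% of the exon length of Bmp5, or of Txndc5 over 5.74% of that of Bmp6, may be counted with the ligand gene, since the strand setting of the counting is not given in the sources used here. Txndc5 itself had mean levels of 403 and 424 CPM in the 2 groups.

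Bmp2 was the only one of the 10 with a negative log2 fold change. It encodes a potent bone-inducing ligand. It had 46.5, 42.2 and 36.7 CPM in controls against 21.1, 29.8 and 34.4 CPM in CXCL12-deficient libraries. The ranges were separate, but the highest CXCL12-deficient library came close to the lowest control. The log2 fold change was -0.56, with a 95% interval from -1.05 to -0.06 (adjusted p = 0.21, edgeR). Leaving out any 1 library gave values from -0.72 to -0.38, none called.

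Bmp4, the ligand with the highest level per length, gave no stable direction. It had 238, 220 and 218 CPM in controls, a coefficient of variation of 4.93%, and 219, 183 and 376 CPM in CXCL12-deficient libraries, one of 39.5%. CXCL12-deficient replicate 3 stood above all other libraries, while CXCL12-deficient replicate 2 was the lowest of the 6. The log2 fold change of 0.20 (95% interval -0.36 to 0.76, adjusted p = 0.73, edgeR) became -0.16 without CXCL12-deficient replicate 3. Summed CAR cell markers were highest in the same library, at 21110 CPM, and their part in the level of Bmp4 there was not tested. The 89 exon bases that Bmp4 shares with a gene on the other strand are 3.96% of its exon length.

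Across the 10 genes, 9 had a positive log2 fold change on the CPM scale (median 0.51, against 0.03 over all tested genes, of which 52.6% were positive). When library factors were taken from the CAR cell markers, 6 of these 9 changed sign (Grem1, Nog, Fstl1, Bmp4, Bmp5 and Bmp6). None of these 6 was called there. The same factors lowered the values of all 10 and took the median over all tested genes to -0.58. How many of all tested genes changed sign there was not counted, so nothing particular to these genes is read from the change of sign. The groups did not overlap for 7 of the 10, 6 higher and 1 lower. Of all tested genes 25.6% did not overlap, 11.7% higher and 13.9% lower. At an unadjusted p below 0.05 stood 6 of the 10, 5 of them higher, against 18.9% of all tested genes and 7.59% for higher alone. DESeq2 called 4 of the 10 higher (Bmper, Chrdl1, Fst and Bmp6), where it called 8.59% of its tested genes, 1.94% higher. In a simulated data set of this size edgeR recovered 30% of genes changed 2-fold and 6% of genes changed 1.5-fold. The changed genes were drawn at random from all levels, so these rates do not give the chance of a call for any of the 10.

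**Figure D3:**
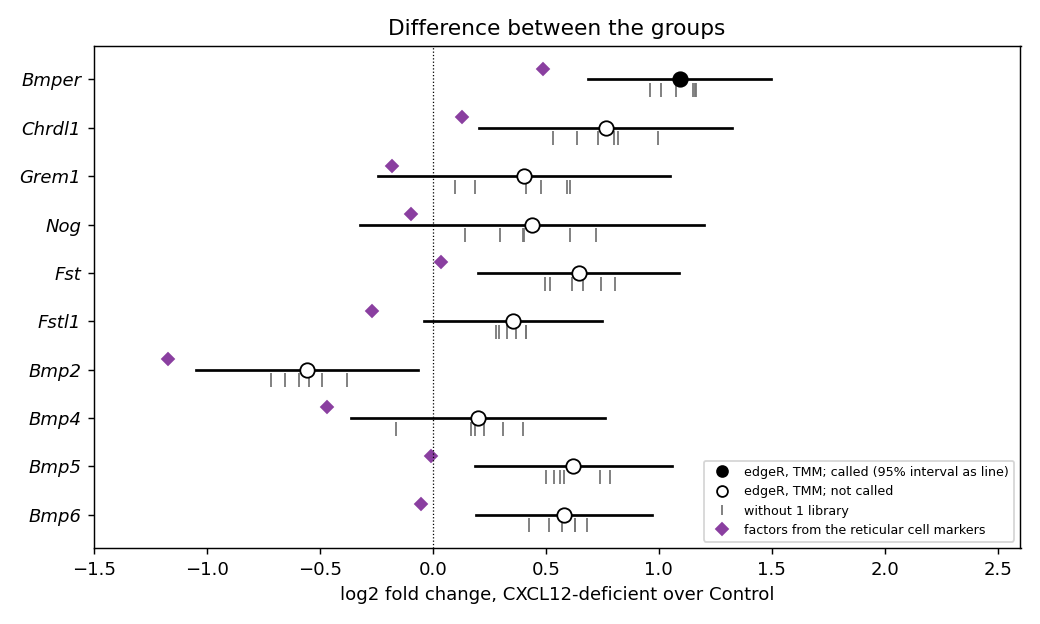
Log2 fold change of each gene, CXCL12-deficient over Control, with its 95% interval (edgeR), the values without 1 library (ticks) and the value with library factors from 12 CAR cell markers (diamonds). Only Bmper is called, at 1.09, and the diamonds of 6 of the 9 genes with positive values lie below 0. On the scale of the diamonds the median of all tested genes is -0.58.

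With TMM scaling, edgeR called none of the listed genes that read, transmit or answer BMP signals. Of 66 tested genes in 6 lists of other BMP pathway genes, 0 were called in either direction, where 4.57% of all tested genes were, and DESeq2 and limma-voom also called 0. At an unadjusted p below 0.05 stood 7 of the 66, and 12.1% did not overlap, against 18.9% and 25.6% of all tested genes. The median log2 fold change over the 66 was 0.10.

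For the BMP target genes the median log2 fold change was 0.04, and in all 14 the groups overlapped. Id3, an inhibitor of basic helix-loop-helix factors and the most abundant of them in CPM, had 1816, 1674 and 1359 CPM in controls against 1761, 2080 and 2303 CPM in CXCL12-deficient libraries (log2 fold change 0.34, 95% interval -0.09 to 0.77). Id4 had 888, 675 and 611 CPM in controls against 426, 902 and 855 CPM in CXCL12-deficient libraries (0.01, from -0.63 to 0.65). Both overlapped between the groups. Named after their values were seen, Id1, a direct SMAD target, had a log2 fold change of -0.14 (from -0.55 to 0.27), and Smad6, the inhibitory SMAD that BMPs induce, one of 0.14 (from -0.33 to 0.62).

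Receptors and signal transducers gave similar counts, 0 of 12 and 0 of 10 called, with medians of 0.22 and 0.04. Eng, which encodes the co-receptor endoglin and is also in the endothelial list, had 108 ± 2.29 CPM in controls against 116 ± 18.2 CPM in CXCL12-deficient libraries. Bambi, a decoy receptor, had 95.6 ± 32.1 and 100.2 ± 14.6 CPM. Smad4, the SMAD shared by BMP and TGF-beta signals, had 187 ± 18.0 and 205 ± 33.5 CPM, and Ppm1a, a phosphatase of SMADs, 105 ± 19.8 and 114 ± 5.63 CPM.

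Other ligands and binding proteins were not called either, 0 of 13 and 0 of 10, with medians of 0.27 and 0.34. Gdf10 had 104 ± 38.9 CPM in controls against 114 ± 48.2 CPM in CXCL12-deficient libraries, and Inhba, the activin A subunit gene, 15.9 ± 4.86 and 12.4 ± 3.22 CPM. Twsg1, which encodes a partner of chordin, had 133, 127 and 114 CPM in controls against 170, 155 and 166 CPM in CXCL12-deficient libraries, without overlap (log2 fold change 0.40, 95% interval 0.08 to 0.71, adjusted p = 0.16, edgeR). Nbl1, of the gremlin family, had 81.4 ± 46.6 and 86.5 ± 34.0 CPM. Of the proteases that process BMPs or chordin 0 of 7 were called. Among them Bmp1, which despite its name encodes a chordin- and procollagen-cleaving protease, had 619 ± 124 and 673 ± 212 CPM, and Pcolce, its enhancer, 452 ± 168 and 556 ± 26.2 CPM.

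**Figure D4:**
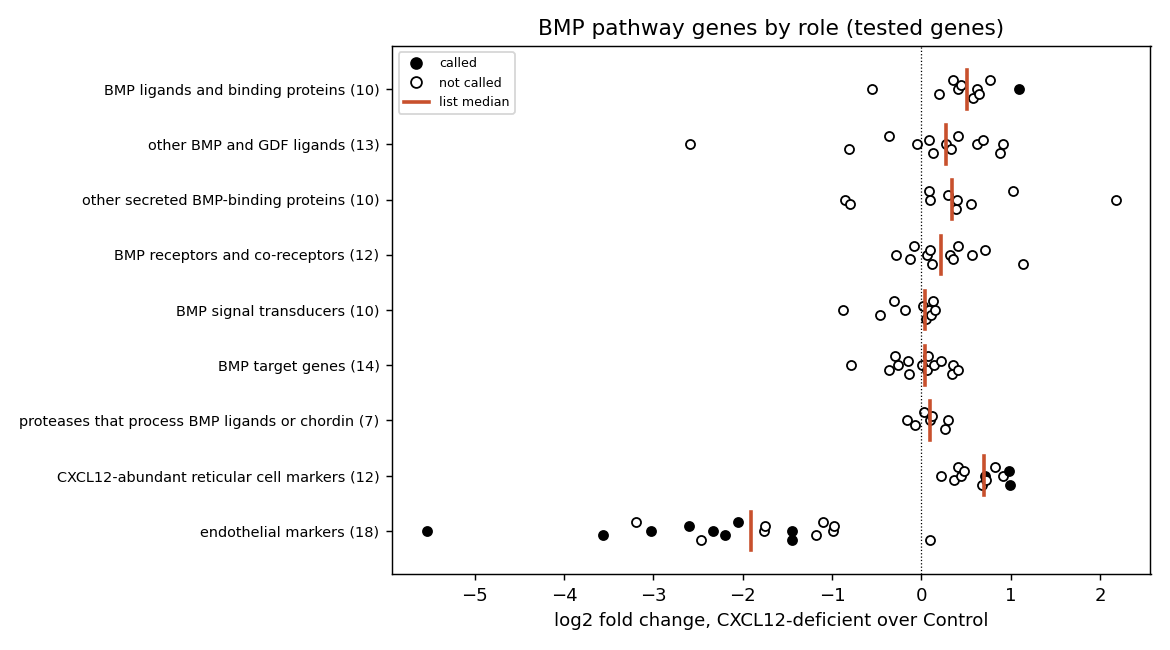
Log2 fold change of every tested gene in each list, CXCL12-deficient over Control, with filled points for called genes and bars for list medians (TMM scaling, which sets the zero). No gene of the 6 other BMP lists is filled, their medians lie between 0.04 and 0.34, and the medians of CAR cell and endothelial markers are 0.70 and -1.91.

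In the CXCL12-deficient libraries CAR cell markers were higher and markers of several other cell types lower, with no erythroid, chondrocyte or osteoblast marker called. For this reason the 10 genes were also set against the geometric mean of the 12 CAR cell markers, a scale chosen after the data were seen. This mean was 453 ± 23.8 CPM in controls against 702 ± 129 CPM in the CXCL12-deficient group (SD, n = 3). With edgeR factors from it the median log2 fold change of all tested genes was -0.58, and 20.1% of genes were called lower and 0.0718% higher. The scale assumes that the markers stayed level per cell, which the data do not show.

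On that scale Bmp2 was the one of the 10 that was called. It stood at 10.5%, 8.78% and 8.38% of the marker mean in controls and at 3.08%, 5.12% and 4.10% in CXCL12-deficient libraries. The highest CXCL12-deficient library was well below the lowest control. The log2 fold change was -1.17 ± 0.26 (SE, adjusted p = 0.014, edgeR).

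Bmper was not called relative to the markers. It stood at 7.28%, 5.85% and 8.10% of the marker mean in controls and 11.7%, 10.7% and 7.31% in CXCL12-deficient libraries. CXCL12-deficient replicate 3 fell within the control range here, in contrast to its CPM. The log2 fold change was 0.49 ± 0.25 (SE, adjusted p = 0.17, edgeR).

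Bmp6 and Bmp5 had log2 fold changes near 0 relative to the markers (-0.05 and -0.01). Bmp6 was at 61.3% ± 6.48 of the marker mean in controls and 59.1% ± 2.08 in CXCL12-deficient libraries, and Bmp5 at 18.2% ± 4.23 and 18.1% ± 1.34 (SD, n = 3 each). Fst, at 72.0% ± 11.4 and 73.8% ± 11.0, was also close between the groups. Bmp4 had 49.8% ± 4.16 and 36.0% ± 7.57, without overlap (log2 fold change -0.47, adjusted p = 0.13, edgeR).

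Relative to the same markers 9 of the 66 other BMP pathway genes were called, all lower. They were 5 of the 14 target genes (Id2, Sp7, Tob1, Smad7 and Id1, with log2 fold changes from -1.02 to -0.76) and Fstl3, Skil, Pcsk7 and Acvrl1. Since 20.1% of all tested genes were lower on this scale, and the lists as such were not tested against other genes, nothing particular to these lists is read from the counts.

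**Figure D5:**
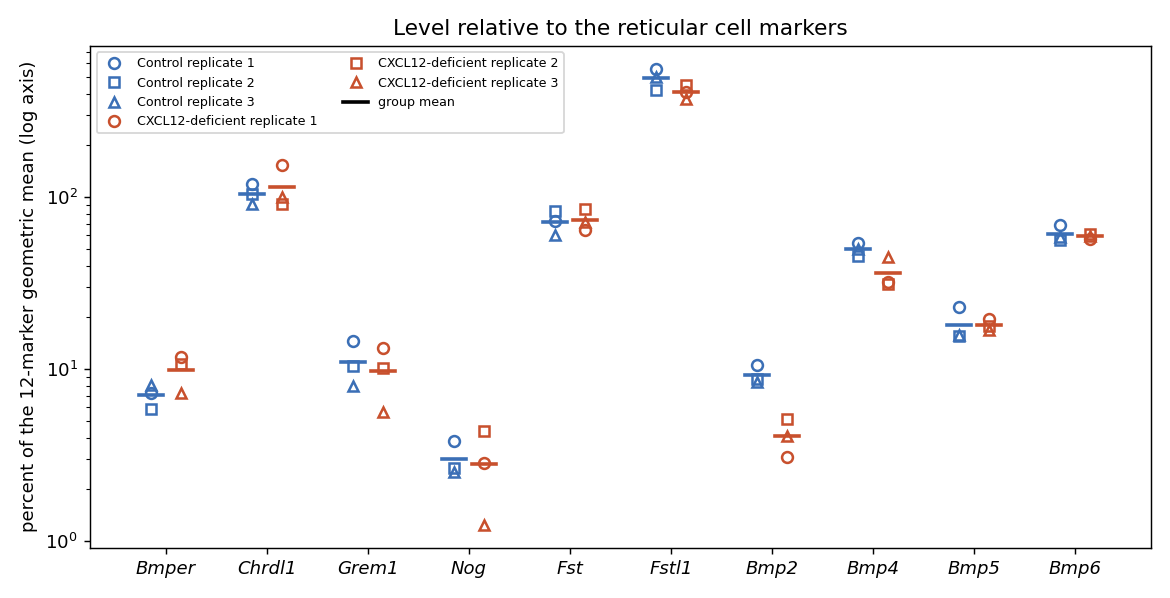
Level of each gene in each library as a percent of the geometric mean level of 12 CAR cell markers (log axis), with bars for group means. Bmp2 is between 8.38% and 10.5% in controls and between 3.08% and 5.12% in CXCL12-deficient libraries, and Bmper overlaps between the groups.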

How the data were processed

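RNA from sorted cells was amplified and sequenced, and the authors deposited a table of raw counts, whole numbers without normalization. Per the submitters' processing notes, the tools were HTSeq, DESeq2, TopHat2 2.0.13, Bowtie2 2.2.1, FastQC, Cuffdiff and Cufflinks, without the role of each, and the build was mm10. The gene annotation was not given in the sources used here, nor was the strand setting. Deposited tables of depth-normalized and regularized log values were not used. The 4 exon entries of Cxcl12 were summed, leaving 17128 genes.

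The groups were compared with edgeR 4.0.16 in R 4.3.3 (TMM factors, filterByExpr with a minimum count of 10 and minimum total of 15, robust quasi-likelihood F-test, Benjamini-Hochberg adjustment over 13926 genes, threshold 0.05). CPM were scaled by TMM factors. Standard errors came from the F statistic and intervals are 95%. Likeness used log2(CPM + 0.5). Alternatives were DESeq2 size factors, no filter, at least 5 CPM in 3 libraries, DESeq2 1.42.0, limma-voom (limma 3.58.1), no robust shrinkage, leaving out each library, and, chosen after the data were seen, factors from the CAR cell markers. A test on simulated data had 200 changed genes among 13649: 73% of those changed 4-fold were recovered, and 10 of 101 calls were false.

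The genes and lists were chosen with earlier results of these data known. Named genes are the 10, Cxcl12, the called genes of each pathway list or else its 2 most abundant in CPM, and the 3 genes most like each called one. Outside this rule, some genes were named after their values were seen. They were Id1, Smad6, Clec3b, Txndc5, Lyz2, C1qa, C1qb, C1qc, Mrc1 and the pathway genes called only on the marker scale. Of 201 list entries 9 were matched to no gene and 2 were found under an older symbol. Coordinates and lengths are those of GENCODE M21 (GRCm38, the assembly of mm10), which may differ from the authors' annotation. RefSeq upstream windows matched 6 of the 10 genes.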

Additional observations from a re-analysis of the deposited data

How the results depend on the processing

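No paired analysis was possible because the labels give no replicate numbers: those used here only name the libraries and pair none. Of 120 planned values of the log2 fold changes of the 10 genes, 113 kept both direction and side of the threshold, and 6 others kept direction. The exception was Bmp4, at -0.16 (-0.1637) without CXCL12-deficient replicate 3, where leaving out each library gave -0.16 to 0.40 (0.4011). Without 1 library, called genes among the 10 ran from 0 to 2 (all of them higher), and over all genes from 74 to 577, 0 to 76 of them higher and 74 to 530 lower. Without Control replicate 3 edgeR called 74 genes, and without Control replicate 2 it called 160. DESeq2 called 1328 genes (300 higher, 1028 lower) and 4 of the 10, all higher. With factors from the CAR cell markers, 2805 genes were called (10 higher, 2795 lower), of the 10 genes 1 lower and 0 higher, and of other BMP pathway genes 9, all 9 lower. The log2 fold changes that changed sign there were Grem1 -0.18 (-0.181), Nog -0.10 (-0.09725), Fstl1 -0.27 (-0.2679), Bmp4 -0.47 (-0.467), Bmp5 -0.01 (-0.00856) and Bmp6 -0.05 (-0.05201). The median over all tested genes was -0.58 with these factors. The cause of these differences between settings was not tested. At the library with the fewest reads of each gene, counting gave a coefficient of variation of 0.465% for Fstl1, the gene with the most reads, and 6.55% for Nog, the gene with the fewest. The edgeR biological coefficients were 17.2% and 30.8%.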
